A study of Canis lupus familiaris with 6 samples.

Results

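Both P114 samples of a 6-sample series were compared with its 4 samples of the lines CMT-U27 and CMT-U309. The samples were chosen by their descriptions, which name growth with macrophages for P114 and mono-culture for the other lines. All 3 are canine mammary cancer cell lines, cultured in RPMI-1640 with fetal bovine serum. Sorting on the surface stem cell antigen Sca1 gave 1 Sca1+ and 1 Sca1- sample per line. P114 was the single line given as grown with macrophages, so line and culture condition cannot be told apart. Titles and sources of the P114 samples do not mention macrophages, and neither the kind nor the number of macrophages is given in the sources used here. Nothing says that separate cultures lie behind the samples, so p-values measure the spread between these samples only.

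The deposited sources give 2 assignments of arrays to samples. In the scanner-file reading an array belongs to the sample it is attached to. In the value-table reading it belongs to the sample whose column in the deposited value table holds its values. The sources used here do not settle which is right, so each comparison was made in both. The array named P1 was P114 Sca1- in both readings. M1, M2 and M3 were mono-culture in both: M1 was CMT-U27 Sca1+ in both, M2 was CMT-U27 Sca1- by scanner file and CMT-U309 Sca1+ by value table, and M3 was CMT-U309 Sca1- by scanner file and CMT-U27 Sca1- by value table. X1 and X2 changed condition. X1 was CMT-U309 Sca1+ by scanner file and P114 Sca1+ by value table, while X2 was P114 Sca1+ by scanner file and CMT-U309 Sca1- by value table. The P114 group was therefore P1 with X2 in one reading and P1 with X1 in the other.

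MicroRNAs (miRNAs) are short RNAs that guide Argonaute proteins to partly complementary messenger RNAs, which are then repressed. Macrophages are known for high miR-223 and miR-142, which mark myeloid and haematopoietic cells, and for miR-155, miR-146a and miR-146b, which are induced by inflammatory signals. Epithelial cells are known for the miR-200 family, which holds down repressors of E-cadherin.

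The arrays carry short capture probes complementary to the 3′ part of each miRNA, so related miRNAs can differ by few bases of probe. The probes of the inflammation-related miR-146a and miR-146b, of miR-204 and miR-211, of miR-148a and miR-148b, and of miR-20a and miR-106a are shown because one member of a pair is read against the other in the results. Capitals mark the bases that differ within a pair, sequences run 5′ to 3′, and each is the longest probe for its miRNA in the deposited files.
miR-146a: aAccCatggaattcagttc
miR-146b: aGccTatggaattcagttc
miR-204: aggcaTaggatgacaaaggg
miR-211: aggcaAaggatgacaaagggaa
miR-148a: acaaagttctgtAGtgcact
miR-148b: acaaagttctgtGAtgcac
miR-20a: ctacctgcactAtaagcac
miR-106a: ctacctgcactGtaagc
The probes of miR-146a and miR-146b differed at 2 of 19 compared bases, and those of miR-148a and miR-148b at 2 of 19. The other pairs differed at 1 base, over 20 compared bases for miR-204 and miR-211 and over 17 for miR-20a and miR-106a. The probes of the myeloid markers miR-223, miR-142 and miR-155 are shown because they bear on the macrophage label.
miR-223: ggggtatttgacaaactgaca
miR-142: tagtgctttctactttatggg
miR-155: acccctatcacgattag
Per the file headers, positions are on canFam2. The miR-146b probe maps to chromosome 28 (17941070 to 17941087), miR-146a to chromosome 4 (53451740 to 53451757), miR-223 to chromosome X (53762383 to 53762402), miR-142 to chromosome 9 (36300839 to 36300858) and miR-155 to chromosome 31 (24096800 to 24096815).

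Detection was far from even between arrays, and it moves with the comparisons of all 6 arrays that follow, while P1 and M3 were close. P1 detected 89 of 289 miRNAs, M1 39, M2 22, M3 91, X1 111 and X2 9, by the deposited detection flag. Summed over miRNAs, the total gene signal was 70162 intensity units on P1, 70794 on M3 and 69282 on X1, against 3228 on M1, 1277 on M2 and 319.5 on X2. Hybridization spike-ins lay between 4.547 and 4.601 on the log10 scale on all 6 arrays. Labelling spike-ins lay between 3.06 and 3.68, with P1 the lowest and M3 the highest, so they did not follow the summed signal. By scanner file, the P114 samples detected a mean of 49 miRNAs and the mono-culture samples 65.8 (n = 2 and 4; exact permutation test, two-sided, p = 0.533). By value table, the means were 100 and 40.2 (exact permutation test, p = 0.267). The direction differed between the readings, and with 2 samples against 4 the smallest p this test can give is 0.133. Fewer cells and less RNA per cell cannot be told apart in such values.

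**Figure D1:**
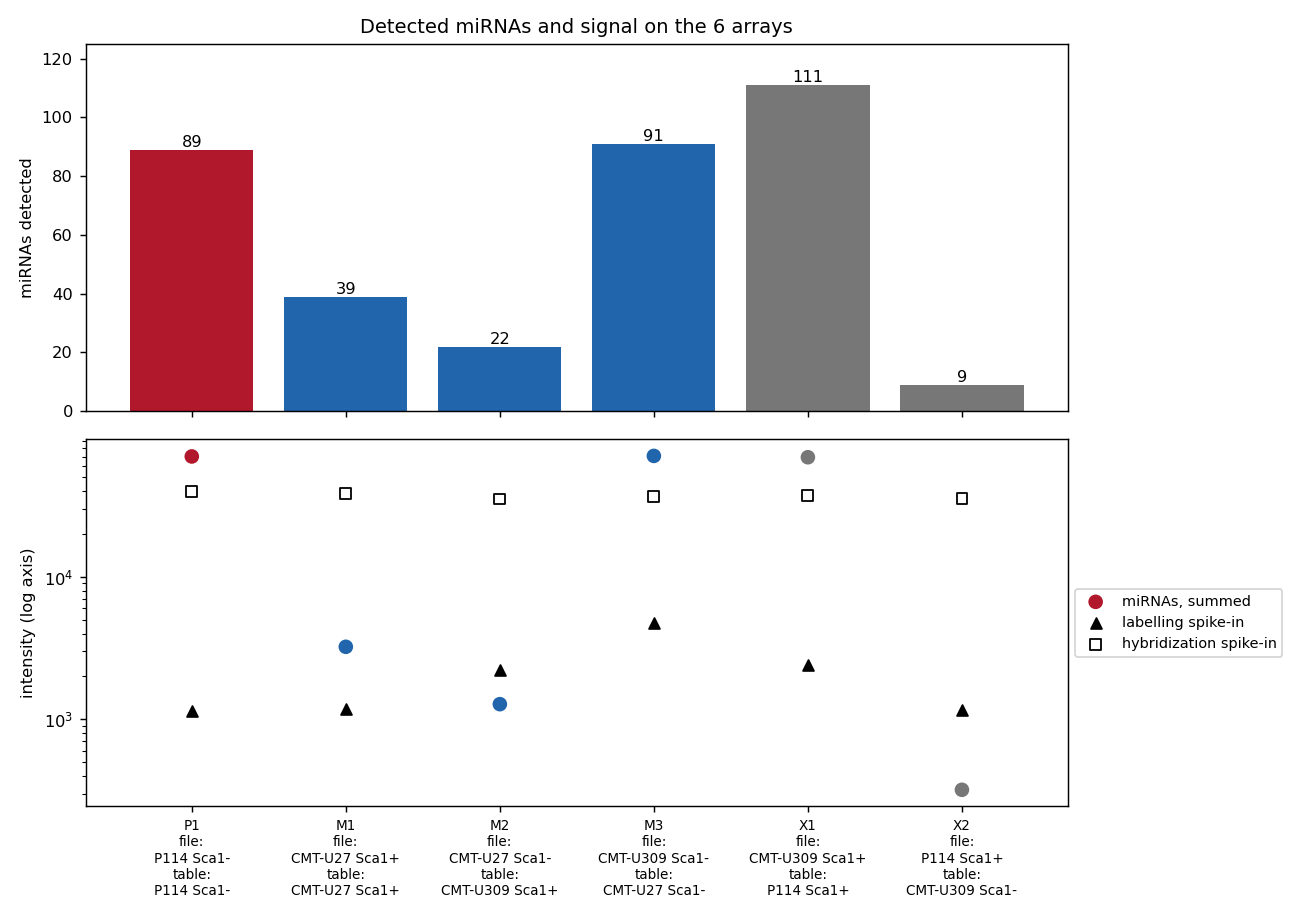
Detected miRNAs (top, bars) and intensity on a log axis (bottom) for each array, labelled with its sample in both readings; circles are summed miRNA signals, triangles and squares the labelling and hybridization spike-ins. P1, M3 and X1 detected 89, 91 and 111 miRNAs with near-equal summed signals, and M1, M2 and X2 detected 39, 22 and 9.

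The P114 Sca1- array was dominated by a few miRNAs of wide expression. miR-21, a miRNA raised in many tumours, had a total gene signal of 31945 on P1 and made up 45.5% of its summed signal. Its share was 45.4% on M3, 26.2% on X1, 20.02% on M1, 8.85% on M2 and 18.9% on X2. miR-21 was thus an equal part of the signal of both Sca1- arrays that detected many miRNAs, one P114 and one mono-culture, and a smaller part on every other array. miR-23a made up 7.80% of P1, let-7a 4.83%, miR-27a 3.97% and let-7f 3.15%. The same miRNAs held ranks 1 to 5 on M3, in the same order. The next 10 on P1 were miR-23b, miR-29b, let-7b, miR-27b, miR-494, miR-125b, miR-29a, miR-16, miR-22 and miR-15b. All but 1 of these 10 had another rank on M3, with the widest gap for miR-494 (rank 10 on P1, 14 on M3), then miR-22 (14 and 17).

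The closest match to P1 was M3, and their difference was small for most miRNAs. This is the only pair of arrays with many detected miRNAs whose condition and fraction are the same in both readings. With 1 array a group there is no replicate check and no p-value. P1 and M3 shared 82 detected miRNAs, 7 were detected on P1 alone of the pair and 9 on M3 alone. Across the 82 miRNAs, which share 2 arrays and are not independent replicates, the log2 signals had a Pearson r of 0.978 and their difference an SD of 0.457. The same SD was 1.105 between P1 and X1 and 1.32 between M3 and X1. P1 thus lay nearer to M3 than to X1, its fellow P114 array by value table. X1 is Sca1+ in both readings and P1 and M3 are Sca1-, so fraction cannot be told apart from line and condition here.

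After scaling, 65 of the 82 miRNAs were lower on P1, or 79.3%, with a median log2 difference (P1 minus M3) of -0.28. By total gene signal without scaling, 63.4% were lower. Scaling over all probes put the median at 0.63, so changes are given relative to the median of the pair as well. None of the 82 was over 2-fold higher on P1 and 3 were over 2-fold lower (3.66%): miR-197, miR-125a and miR-181d. With scaling over all probes, 11 were over 2-fold higher and 0 lower. Relative to the pair median, none passed 2-fold in either direction in the main setting. In at least 1 of the 8 settings 7 were over 2-fold higher relative to it, among them miR-210, miR-874, miR-370 and miR-204, and 5 were over 2-fold lower, among them miR-197, miR-425 and miR-125a. Among all of these, miR-874, miR-425, miR-125a, miR-30c and miR-181d passed with the mean of all probes alone. In the main setting they stood at 0.53, -0.36, -0.77, -0.06 and -0.73 relative to the median. By total gene signal with no scaling the ratio of P1 to M3 was 2.76 for miR-210, 2.43 for miR-370 and 2.12 for miR-204.

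The miRNAs highest on P1 included the hypoxia-induced miR-210. Its total gene signal was 81.1 ± 8.53 (error given by the scanner software) on P1, 29.4 ± 6.41 on M3 and 47.2 ± 6.23 on X1, and it was not detected on M1, M2 or X2. The scaled log2 difference of P1 over M3 was 0.65, or 0.93 above the pair median, with a range of 0.30 to 1.55 over 8 settings. P1 was thus the highest of the 3 arrays that detected miR-210, and the sign relative to the median held in every setting. miR-494, a miRNA of the imprinted DLK1-DIO3 region, had signals of 1423 ± 104 on P1, 764 ± 57.5 on M3, 2723 on X1, 406 on M1, 513 on M2 and 57.7 on X2. Its difference was 0.63, or 0.91 above the pair median (0.65 to 1.04 over the settings). It was higher on P1 than on M3, while X1 was above both. As a share of summed signal miR-494 was 2.03% on P1, 1.08% on M3, 3.93% on X1, 12.6% on M1, 40.2% on M2 and 18.1% on X2.

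miR-204 was 57.0 ± 7.52 on P1 and 26.9 ± 6.31 on M3, and was detected on no other array. Its near relative miR-211, whose probe differs from the miR-204 probe at 1 base, showed the opposite: it was 68.7 ± 6.71 on M3 and not detected on P1, which puts it at least 2.13-fold higher on M3. Such a bound sets the M3 value against the higher of the lowest signal well above background and the measured value on P1. It was computed in the main scaling alone, and scaling over all probes, which moves P1 up against M3, would lower it. miR-148a and miR-148b, which share a seed and target DNA methyltransferases, were both higher on P1, with signals of 135 against 91.3 and 60.4 against 39.7. They stood 0.67 and 0.70 above the pair median. The remaining members of the 10 highest, let-7e, miR-874, miR-183, miR-370 and miR-365, stood between 0.42 and 0.65 above it.

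By scaled value of the brightest probe the lowest on P1 against M3 was miR-197, with total gene signals of 46.8 ± 6.96 on P1 and 87.3 ± 10.3 on M3. miR-125a, of the miR-125 family, had 17.8 ± 4.65 and 31.8 ± 6.53. miR-181d had 69.5 ± 8.21 and 140 ± 13.2, the lowest ratio of total gene signals among these 3 (0.498 against 0.537 for miR-197). Their scaled log2 differences were -1.095, -1.05 and -1.02, and the relative value of miR-125a ran from -7.00 to -0.14 over the settings, so its size is poorly fixed. miR-20a, of the proliferation-linked miR-17 cluster, and miR-106a, of its X-linked paralogue, were 528 against 820 and 269 against 417. Whether the probe of one member of these clusters also captures another was not tested. miR-18a and miR-19b, of the same family of clusters, were 58.5 against 85.8 and 49.7 against 72.7. miR-188 and miR-425 complete the 10 lowest. Errors of the scanner software limit these readings: 21 of the 82 ratios exceeded 2 such errors. Spot-to-spot errors are smaller, with a median SE of 0.033 on the log2 scale, and 72 of 82 differences exceeded 2 of them, but spots of an array share its RNA and hybridization. Of 52 miRNAs with 2 or more probes well above background, 43 had the same sign relative to the pair median for their probes, and 60 of the 82 kept that sign in all 8 settings (28 above, 32 below).

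**Figure D2:**
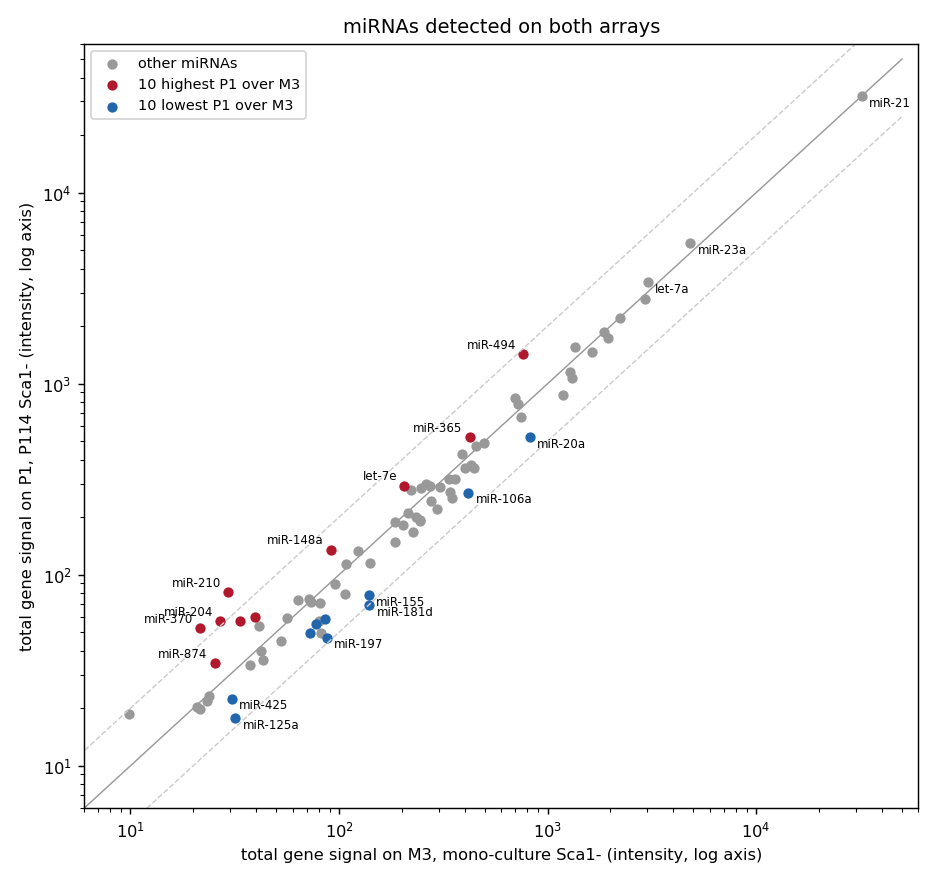
Total gene signal of the 82 miRNAs detected on both P1 (vertical) and M3 (horizontal), both axes logarithmic; the solid line marks equal signal and the dashed lines 2-fold, and some labels are left out where points crowd. miR-21 lies on the line at 31945 and 32139, miR-210 and miR-494 above it, and miR-20a, miR-155 and miR-181d below it.

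By family, members of the miR-17 cluster and paralogues, which drive cell cycle entry, sat low on P1. Of the 10 detected on both arrays, 9 were below the pair median, with a median log2 difference of -0.59 against -0.28 for all 82. All 4 detected members of the miR-99, miR-100 and miR-125 group were below the pair median (median -0.56). All 3 members of the miR-29 family, which target collagens, were below it (median -0.47), as were miR-221 and miR-222, which target the cell cycle inhibitor p27 (median -0.50). Of the let-7 family, which restrains growth genes such as RAS and HMGA2, 6 of 7 were above the pair median (median -0.05). All 3 members of the miR-183 cluster were above it (median 0.12), and so were 4 of 5 members of the group with miR-23, miR-24 and miR-27 paralogues (median -0.19). The miR-30 family and the miR-15 and miR-16 family each had 2 of 3 above it. Relative to the pair median, 8 of the 10 miR-17 cluster members were below it in all 8 settings, 3 of 4 in the miR-99 group, 2 of 3 miR-29 members and both of miR-221 and miR-222. Of the let-7 miRNAs 4 were above it in all settings and 1, let-7g, below it. Above it in all settings were also all 3 of the miR-183 cluster and 1 of the 5 in the group with miR-23a. Over all 82 miRNAs, 28 were above and 32 below in all settings. Some counted members lay close to the pair median in the main setting. Relative to it miR-125b was at -0.01, miR-29b at -0.03, miR-221 at -0.08 and miR-27a at 0.02. Each of these lay within its scanner error on the log2 scale (0.18, 0.17, 0.18 and 0.16). These counts describe 1 array against 1 array, and the lists were chosen with earlier results of these data known.

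**Figure D3:**
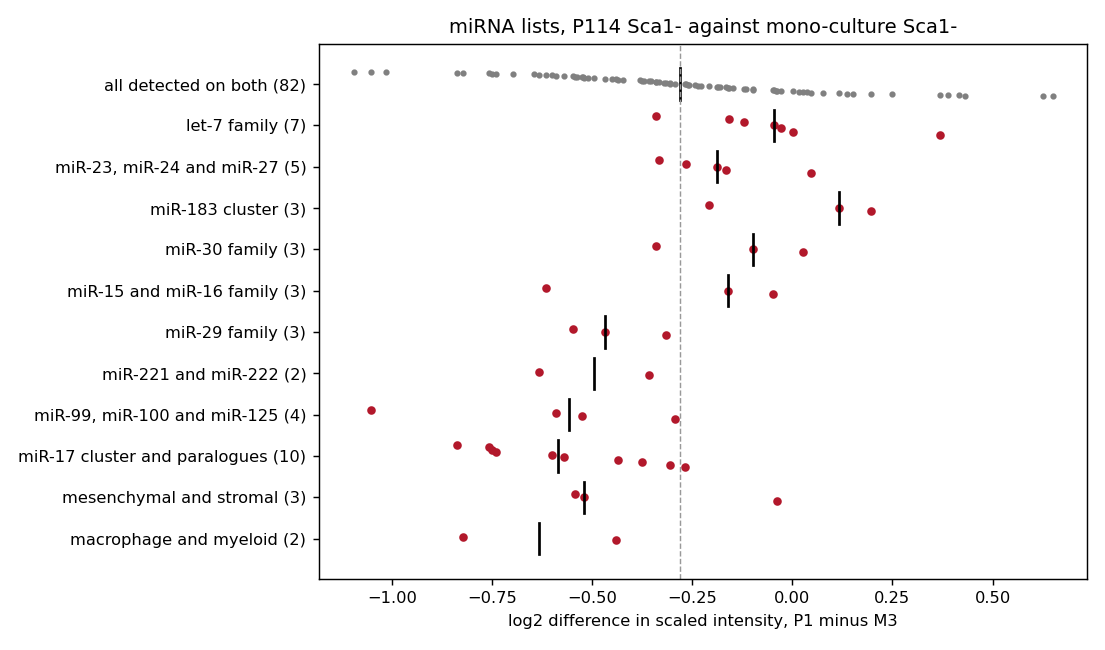
Scaled log2 difference of P1 over M3 for each miRNA (points) in lists of related miRNAs, with the list median (black bar) and the median of all 82 (dashed line); numbers after the names count miRNAs detected on both arrays. The miR-17 cluster median lies at -0.59 and the let-7 median at -0.05, on either side of the overall median of -0.28.

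Markers of macrophages were detected on P1 at about the share of all miRNAs. Of 9 macrophage and myeloid miRNAs on the array, P1 detected 3, M1 and M2 1 each, M3 2, X1 4 and X2 1. Of all 289 miRNAs, P1 detected 30.8%, M1 13.5%, M2 7.6%, M3 31.5%, X1 38.4% and X2 3.1%. Their summed signal was 182 on P1 and 219 on M3, against 959 on X1, 65.7 on M1, 59.6 on M2 and 61.2 on X2. By scanner file the P114 arrays spanned 61.2 to 182 and the mono-culture arrays 59.6 to 959, and by value table they spanned 182 to 959 and 59.6 to 219, so the groups overlapped in both. miR-142, a defining haematopoietic miRNA, was detected on none of the 6 arrays. Its entry does not name the arm of the precursor hairpin that it reads, so this does not speak for both arms. miR-223, the most myeloid-restricted of the list, was 70.9 ± 7.89 on P1, 65.7 ± 6.6 on M1, 59.6 ± 6.52 on M2, 80.9 ± 9.88 on M3, 69.5 ± 7.15 on X1 and 61.2 ± 6.18 on X2. Its signal was near-level over arrays whose summed signal ranged from 319.5 to 70794. After scaling it was therefore lower on the arrays with more signal, and its fitted log2 difference changed sign with the reading (0.95 with SE 2.46 by scanner file, -3.61 with SE 1.98 by value table). miR-155 was 78.0 ± 8.93 on P1, 139 ± 14.6 on M3 and 189 ± 17.0 on X1, and not detected elsewhere, so P1 was the lowest of the 3.

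The pair of miR-146 relatives split between arrays. miR-146b was 32.7 ± 5.41 on P1, with all spots of its brightest probe there well above background, and was detected on no other array. miR-146a was 690 ± 56.0 on X1 and detected on no other array. In the main scaling the fold of miR-146b over M3 had no bound above 1, since the signal lies at the level of the dimmest probes called well above background. miR-147 was detected on X1 alone, at 10.52, and miR-132, miR-212 and miR-187 on none.

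Markers of other cells were counted in the same way, beside the shares of all miRNAs just given. None of 7 epithelial miRNAs was detected on P1, while X1 detected 5, led by miR-141 at 2839 and miR-200c at 1427. miR-141 was also detected on M2 (23.9) and M3 (28.9). None of 3 lymphoid miRNAs was detected on P1, and X1 detected 2. The endothelial miR-126 and the liver miR-122 were detected on no array. None of 7 muscle miRNAs was detected on P1, and X1 detected miR-499 (12.9). Of 5 neuronal miRNAs P1 detected miR-128, at 23.3 against 23.8 on M3 and 47.4 on X1, and X1 also detected miR-9 (51.3). Of 6 mesenchymal and stromal miRNAs P1 and M3 detected the same 3: miR-140 at 430 and 390, miR-199 at 193 and 245, and miR-10b at 49.7 and 82.2. X1 had 19.9 for miR-140 and 114.4 for miR-10b and did not detect miR-199, so it was below P1 and M3 for 2 of these and above them for miR-10b. miR-143, miR-145 and miR-214 were detected on no array. X1, which had the epithelial signals, is labelled mono-culture in one reading and P114 in the other. How far the makeup of the sorted cells bears on the comparison was not tested.

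**Figure D4:**
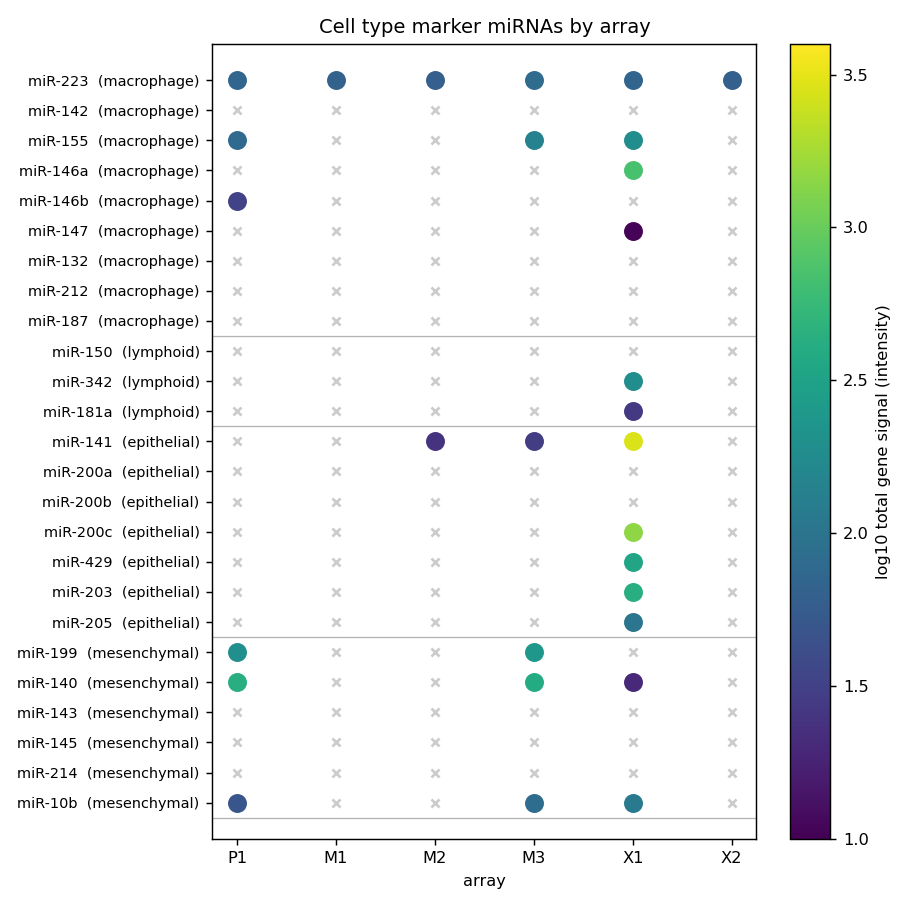
Cell type marker miRNAs (rows) on the 6 arrays (columns); filled circles are detected, coloured by log10 of the total gene signal, and crosses are not detected. miR-223 is detected on all 6 arrays and miR-142 on none, miR-146b on P1 alone and miR-146a on X1 alone, and the epithelial miRNAs on X1 far above the other arrays.

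Detection itself can be compared over the arrays whose condition holds in both readings. P1 detected 7 miRNAs found on none of M1, M2 and M3: miR-134, miR-146b, miR-152, miR-33, miR-338, miR-423a and miR-448. Their signals were low, from 7.82 for miR-134 to 32.7 for miR-146b, and 5 of them were also detected on X1. miR-146b and miR-448 (8.71) were therefore the 2 miRNAs on P114 and on no mono-culture array in both readings, each on P1 alone of 6 arrays. For miR-448 and miR-134 no spot of the brightest probe was well above background on P1, so their detection there rests on the flag. The share of such spots was 0.05 for miR-152 and miR-33, 0.1 for miR-338 and 0.15 for miR-423a. It was 1 for miR-146b. No miRNA was on both P114 arrays and no mono-culture array by scanner file, and 5 were by value table, a count that includes the arrays X1 and P1 with many detected miRNAs.

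In the other direction, 11 miRNAs were detected on 1 or more of M1, M2 and M3 and not on P1, and miR-141, miR-451 and miR-489 on 2 or more. miR-489 was 122 ± 9.88 on M1, 133 ± 10.6 on M2 and 39.2 ± 5.90 on X1, and was not detected on P1, M3 or X2. It was brighter on 2 arrays with little summed signal than on X1, which had much. The erythroid miR-451 was 39.4 on M2 and 18.1 on M3. In the main scaling, against M3, miR-328 was at least 2.04-fold lower on P1, miR-885 at least 1.53-fold and miR-141 at least 1.51-fold. Scaling over all probes moved the pair median from -0.28 to 0.63, which exceeds the log2 bounds of miR-885 (0.615) and miR-141 (0.592). With that scaling miR-885 and miR-141 would keep no bound, and the bound of miR-328 (1.028 on the log2 scale) would be far smaller. In neither reading was any miRNA on all 4 mono-culture arrays and no P114 array. By value table, in all, 31 miRNAs were on 1 or more P114 arrays and on no mono-culture array, and 24 of these were on X1 alone.

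No miRNA passed the test of P114 against mono-culture in either reading. The model had terms for group and fraction and was fitted to the 80 miRNAs detected on 3 or more arrays. At an adjusted p under 0.05 (limma, Benjamini-Hochberg) 0 passed by scanner file (0%) and 0 by value table (0%). The smallest adjusted p was 0.965 and 0.602 (limma). At an unadjusted p under 0.05, 0 passed by scanner file and 2 by value table (2.5%): miR-210 and the miR-183 cluster member miR-182. The median SE of a log2 difference was 2.30 and 2.01, so differences of several log2 units could not be detected. Within lists, too, 0 members passed in either reading.

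The readings differed in direction, and the direction did not hold over settings within a reading. By scanner file 31 of 80 differences were above 0 (38.8%), with a median log2 difference of -0.63. By value table, in contrast, 72 were (90%), with a median of 2.17. The 10 members of the miR-17 cluster were all below 0 by scanner file (median -2.47) and all above 0 by value table (median 2.81). Of the 7 let-7 miRNAs, 6 were above 0 by scanner file (median 0.50) and 7 by value table (median 0.70). A median this far from 0 moves with the arrays that detected few miRNAs, of which 1 lay in the P114 group by scanner file and none by value table. Of the 80 miRNAs, 2 kept the sign of their difference over the main setting and all alternatives by scanner file, the epithelial miR-141 (lower) and the p53 target miR-34a (higher), and 0 by value table. The signs given for the miR-17 cluster and let-7 members therefore belong to the main setting alone. miR-34a was 363 on P1, 444 on M3 and 37.5 on X1, and was not detected on M1, M2 or X2. For P1 over M3 it lay below the pair median in all 8 settings, from -0.39 to -0.13. miR-141 was not detected on P1 or X2, the P114 arrays by scanner file.

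The miRNAs with the smallest p differed between readings, with no miRNA in both sets of 10. By scanner file they were miR-26a, miR-188, miR-106b, miR-19b, miR-19a, miR-34a, miR-22, miR-378, miR-191 and miR-320, and 9 of them were lower in P114. None of these 10 was detected on X2, a P114 array in this reading, so each difference includes a value below detection. miR-26a, known as a brake on cell cycle genes, had a log2 difference of -3.55 (SE 1.91). Its signal was 270 on P1, 10.4 on M1, 14.7 on M2, 342 on M3 and 392 on X1, with none detected on X2. By value table the difference was 1.80 (SE 2.50), so its sign turned.

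By value table the 10 were miR-210, miR-182, miR-24, miR-148b, miR-155, miR-185, miR-101, miR-324, miR-140 and miR-183, and all were higher in P114. Each was detected on P1, M3 and X1 and on no other array, so the difference sets values below detection on M1, M2 and X2 against the signal of P1 and X1. miR-210 had a log2 difference of 6.47 (SE 2.63) by value table and 0.46 (SE 3.89) by scanner file.

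Groups that did not overlap were few. By scanner file both P114 values lay above all 4 mono-culture values for 1 miRNA (1.25%), miR-30d, and below them for 2 (2.5%), miR-188 and miR-19b. By value table they lay above for 5 (6.25%), miR-101, miR-148a, miR-148b, miR-183 and miR-96, and below for 3 (3.75%), miR-149, miR-197 and miR-223. No miRNA was in both sets. miR-30d, miR-188 and miR-19b were not detected on X2, a P114 array by scanner file, so their order rests on values below detection. By total gene signal miR-30d was 284 on P1 and 347 on X1. The 5 above by value table were each detected on 3 arrays, so some of their mono-culture values lay below detection. Of the 3 below by value table, miR-149 and miR-223 also set the scaling, and miR-197 was not detected on X2, mono-culture in this reading. The order of miR-223 did not hold without scaling. Its total gene signal was 70.9 on P1 and 69.5 on X1, against 65.7 on M1, 59.6 on M2, 80.9 on M3 and 61.2 on X2.

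For 9 miRNAs detected on all 6 arrays every value was measured, though probes of 6 miRNAs, miR-21, miR-223, miR-149, miR-494, let-7a and let-7b, also set the scaling. miR-21 had scaled log2 values of 3.53 on P1, 0.79 on M1, 0.16 on M2, 3.71 on M3, 2.17 on X1 and 0.30 on X2. Its difference was 0.21 (SE 1.84) by scanner file and 1.61 (SE 1.70) by value table. let-7b was -1.002 on P1, -3.76 on M1, -0.99 on M2, -1.004 on M3, -0.91 on X1 and -0.88 on X2. The scaled value of let-7b, which helps set the scaling, was thus near-equal on all arrays but M1, which is mono-culture in both readings. Its total gene signal ran from 28.7 on X2 to 2406 on X1. The differences of let-7b were 0.73 (SE 1.65) and 0.70 (SE 1.65). miR-21, let-7a, let-7b and let-7f were above 0 and miR-494 below 0 in both readings, each by less than its SE. miR-23a, miR-149, miR-223 and miR-365 changed sign.

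**Figure D5:**
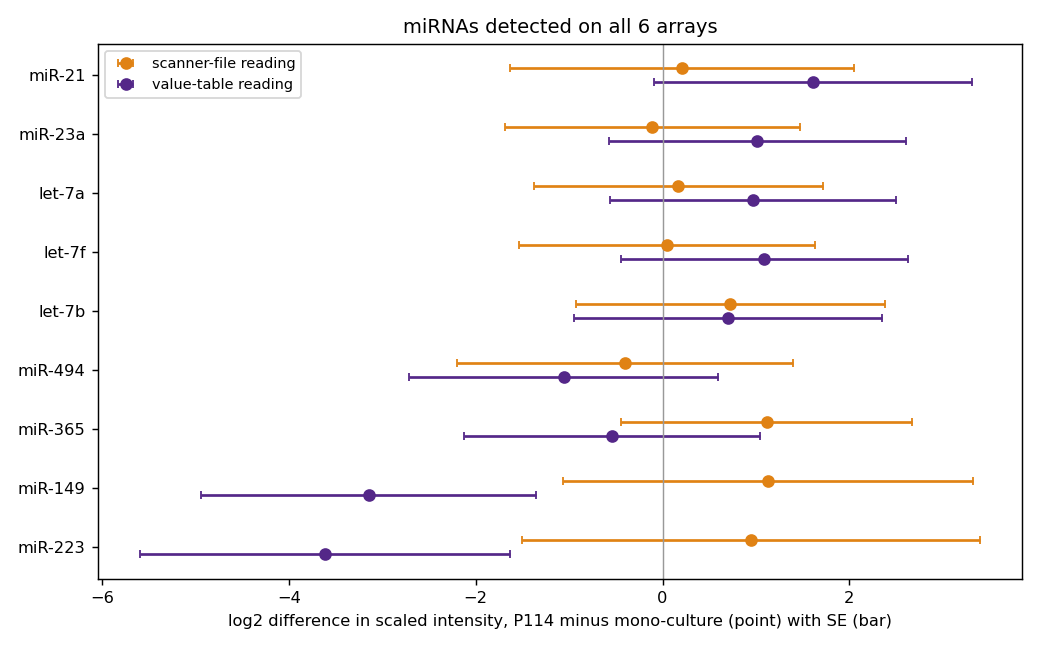
Log2 difference in scaled intensity between P114 and mono-culture samples (points) with its SE (bars) for the 9 miRNAs detected on all 6 arrays, in the scanner-file reading (orange) and the value-table reading (purple). miR-223 and miR-149 lie above 0 in the one and below 0 in the other, and no difference passed the threshold.

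The difference between P114 and mono-culture was also compared between fractions. At an adjusted p under 0.05 (limma), 0 of 80 miRNAs had an interaction of group and fraction in either reading. At an unadjusted p under 0.05 there was 1 by scanner file and 0 by value table. With P1 set against M1, M2 and M3 alone, a comparison chosen after seeing the data, 0 passed (limma, smallest adjusted p 0.951), with a median log2 difference of 1.46. That fit takes the spread from the mono-culture arrays and assumes that P1 varies alike.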

How the data were processed

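Total RNA of 6 samples was hybridized to Agilent 1-colour miRNA arrays on 1 slide, with 289 miRNAs on 656 probes. Spot intensity in the deposited scanner files came from Agilent Feature Extraction. The version is 10.10.1.1 in the file headers, while the submitters' processing notes name 10.7.3.1. The processed intensity is background-subtracted, per the file headers. The labels name Cy5, while the files hold 1 green channel. Total gene signal and a detection flag per miRNA are the deposited values, with 0.1 for a miRNA not detected. Intensity for 311 features stands in the deposited value table. Of its 6 columns, 2 equalled the total gene signal of their own sample's file and 4 that of another (relative tolerance 0.0001).

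Non-positive values took the array's lowest positive value before log2. Spots of a probe were averaged without outlier flags, and each array's 75th percentile, taken over 10 probes that were well above background on all arrays, was subtracted. A miRNA took its brightest probe. The 80 miRNAs detected on at least 3 arrays were fitted in limma 3.58.1 (R 4.3.3, the data.table package, version 1.17.8) with terms for group and fraction, adjusted by Benjamini-Hochberg (threshold 0.05). The number of arrays limits the precision.

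The members, lists and tests were chosen with earlier results of these data known. Named miRNAs are those past the threshold in both readings, the 10 smallest p per reading, the 15 brightest on P1, those detected on P1 and on none of M1, M2 and M3 or on 2 or more of these and not P1, the 10 highest and 10 lowest for P1 over M3, and detected members of the lists. Other miRNAs were named after their values were seen. Alternatives changed the background correction, scaling, floor, probe summary, filter, model terms and samples. Mature miRNA sequences were not used here.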

Additional observations from a re-analysis of the deposited data

Results flagged for a closer look

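In the 4 mono-culture samples, 24 results had 1 sample standing apart: its gap to the nearest sample, as a share of the whole range, exceeded Dixon's critical value. Chance flags about 1 in 20 such groups, and 66 named miRNAs were looked at in each reading. By scanner file the shares were 0.966 for let-7b, 0.9 for let-7c, 0.918 for let-7e, 0.915 for miR-98, 0.924 for miR-106a, 0.948 for miR-17, 0.906 for miR-18a, 0.927 for miR-19a, 0.83 for miR-25, 0.932 for miR-92a, 0.877 for miR-93 and 0.996 for miR-30c. By value table they were 0.956 for let-7b, 0.953 for let-7c, 0.896 for let-7e, 0.834 for let-7f, 0.92 for let-7g, 0.858 for miR-106b, 0.879 for miR-19b, 0.896 for miR-210, 0.877 for miR-24, 0.962 for miR-27b, 0.874 for miR-489 and 0.959 for the summed total gene signal, where M3 stood above M1, M2 and X2. Most of these miRNAs were below detection on some of the arrays, where values have no order. Of the miRNAs flagged by scanner file 2 were detected on all 4 mono-culture arrays (of 15 so detected), and by value table there were 2 (of 8).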

How the results depend on the processing

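The count of miRNAs past the threshold stayed at 0 in 18 of 19 alternatives in each reading. By scanner file it was 1 (miR-141, lower) without the 3 dim arrays. That fit set P1 alone against M3 and X1 for 90 miRNAs, with no fraction term and 1 residual degree of freedom. miR-141 was not detected on P1 and was 28.9 on M3 and 2839 on X1, so this is no usable test. By value table, leaving out 1 sample at a time gave 0 to 3. The 3 came without M3 (mono-culture replicate 2): miR-182, miR-210 and miR-24 were higher (limma adjusted p = 0.0324), but none of them was detected on the remaining mono-culture arrays M1, M2 and X2, so the sizes are not given. Over background, scaling, floor and probe settings, the median log2 difference ran from -1.69 (no scaling) to 0.76 (floor) by scanner file and from -1.34 (normexp) to 5.82 (no scaling) by value table, and leaving out 1 sample took it from -2.59 to 1.20 by scanner file. For P1 over M3, the count past 2-fold was 3, and it was 0 with normexp background, 0 with no scaling, 11 with scaling over all probes (all higher), 5 with total gene signal (2 higher, 3 lower) and 7 with the mean of all probes. The scanner-file difference in detected miRNAs (-16.8) turned to 12.5 when any spot well above background counted as detection. The causes were not tested. No paired analysis was possible because P114 and mono-culture are different lines and the labels give no numbers that pair samples across them. With line as a term, which pairs the fractions within a line, 0 passed in either reading, with 2 residual degrees of freedom. At an unadjusted p under 0.05 (limma) that model gave 0 of 80 by scanner file and 25 by value table, against 2 by value table in the main model. The smallest adjusted p by value table was then 0.118 (limma).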
